A study of Homo sapiens with 6 samples.

Results

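The genes described here make cholesterol and fatty acids: 33 of the 27264 genes in the count table, chosen by their symbols, all of which matched an Ensembl identifier. They fall into 8 genes of the mevalonate arm that ends at squalene, 11 genes that turn squalene into cholesterol, 5 genes that encode the sterol-sensing regulators, 2 genes of sterol transport and 7 genes of fatty acid synthesis. All 6 libraries of the series were used. They come from DLD-1, a line of epithelial colorectal cancer cells, labelled ZEB2 WT, which is read here as carrying a ZEB2 construct switched on by DOX, in 3 clones named WT2, WT5 and WT37. In the deposited counts the names of all 6 libraries also carry TR21 after that of the line, a label that the names do not explain. Each clone gave 1 library with DOX (doxycycline, which the labels pair with a mesenchymal state) and 1 library without DOX (paired with an epithelial state), so there were 3 libraries with DOX and 3 without. ZEB2 is a zinc finger repressor of epithelial genes and a known driver of epithelial-to-mesenchymal transition. The label list has no library with DOX from cells lacking the construct, so an effect of DOX itself and an effect of the induced ZEB2 cannot be told apart, and each clone is a single clonal line sequenced once per state.

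Cells build cholesterol from acetyl-CoA through mevalonate, isoprenoid units, squalene and lanosterol, and they build fatty acids from the same acetyl-CoA through malonyl-CoA. Transcription of most of these enzymes is driven by the SREBP factors, which SREBF1 and SREBF2 encode. SREBPs are held in the endoplasmic reticulum by SCAP and the INSIG proteins while sterols are plentiful, and are cut and released to the nucleus when sterols run low. INSIG1 is itself a target of the factors that it restrains. In epithelial cells that divide fast, both pathways supply lipid for new membranes.

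Reads counted in genes numbered 5440093 to 7164426 per library. The libraries read the ends of transcripts, so gene length does not enter the counts, and levels below are CPM (read counts scaled to a common library total of reads in genes) scaled by the TMM factors. ZEB2 itself was sparse, with 20, 9 and 22 reads in WT2, WT5 and WT37 with DOX and 9, 5 and 3 reads in the same clones without DOX. Summed over 8 markers, colon epithelial genes stood at 4146 to 5731 CPM with DOX and at 6729 to 8551 CPM without DOX. The sum with DOX was 0.67, 0.85 and 0.61 times that without DOX in WT2, WT5 and WT37, so WT5 changed least. KRT18 was the largest part of each sum. Of the 8 markers, 7 were lower with DOX in all 3 clones. CDX2 was higher in all 3, at 706, 546 and 795 CPM in WT2, WT5 and WT37 with DOX, against 481, 455 and 590 CPM without DOX. The 7 mesenchymal markers were VIM, CDH2, FN1, ZEB1, SNAI2, TWIST1 and ZEB2 itself, read here as the gene of the construct. Summed over these 7, levels were 9.70 to 18.0 CPM with DOX and 11.8 to 15.6 CPM without DOX. FN1 was the largest part of each sum, at 4.11 to 10.7 CPM with DOX and 9.08 to 13.4 CPM without DOX. It was lower with DOX in each clone. ZEB2 made up 3.29, 1.28 and 2.87 CPM of the sums in WT2, WT5 and WT37 with DOX. Without DOX it made up 1.74, 0.833 and 0.411 CPM in the same clones. VIM, at 0.822 to 1.96 CPM with DOX and 0.193 to 0.685 CPM without DOX, and ZEB1, at 0.658 to 1.44 CPM with DOX and 0.137 to 0.193 CPM without DOX, were higher with DOX in each clone but too sparse to test. CDH2, also too sparse to test, was higher with DOX in WT2 and WT5. In WT37 it was lower, at 0.653 CPM with DOX and 0.958 CPM without DOX. SNAI2 was at 0.392 CPM or less and TWIST1 at 0 in every library. Markers of immune, endothelial and fibroblast cells summed to 4.604 to 11.7 CPM with DOX and 5.02 to 10.5 CPM without DOX, with PECAM1 and COL1A2 at 0 throughout. In RNA from whole cultures, fewer cells of a type and less RNA per cell cannot be told apart. The WT37 libraries stood apart in the share of reads mapped to several places, 12.01% with DOX and 11.8% without DOX, against 14.6% to 15.96% in the other 4.

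Promoters of 6 members are shown as examples. TM7SF2 is the member whose call depends on DOX, and SREBF2 is the regulator with the only DOX groups that did not overlap. MVK, MSMO1, INSIG1 and SCD are among the members that differed between clones, MVK and MSMO1 each by a call against 1 clone only. The windows run from 250 bases before to 50 bases after each start in RefSeq on GRCh38.p14, all on the plus strand. They are TM7SF2 at chr11:65111622-65111921, MVK at chr12:109573544-109573843, MSMO1 at chr4:165327419-165327718, INSIG1 at chr7:155297628-155297927, SCD at chr10:100346983-100347282 and SREBF2 at chr22:41832855-41833154. Capitals mark the letters of a sterol response element (TCACNCCAC), the CCAAT box that the factor NF-Y binds, and the E-box CACGTG, each searched on both strands, where a CCAAT box on the minus strand reads ATTGG.
TM7SF2: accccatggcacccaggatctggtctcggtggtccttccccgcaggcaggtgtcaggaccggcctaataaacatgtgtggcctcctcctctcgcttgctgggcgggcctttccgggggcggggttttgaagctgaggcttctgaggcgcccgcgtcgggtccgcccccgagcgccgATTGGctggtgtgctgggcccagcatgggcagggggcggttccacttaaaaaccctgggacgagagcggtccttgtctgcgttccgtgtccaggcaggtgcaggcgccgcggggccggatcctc
MVK: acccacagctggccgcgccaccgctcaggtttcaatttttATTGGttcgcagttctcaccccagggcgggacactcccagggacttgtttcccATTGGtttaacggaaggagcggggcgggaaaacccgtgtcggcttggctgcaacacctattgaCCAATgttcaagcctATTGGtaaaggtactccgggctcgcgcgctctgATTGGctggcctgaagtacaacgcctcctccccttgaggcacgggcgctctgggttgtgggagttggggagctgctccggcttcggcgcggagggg
MSMO1: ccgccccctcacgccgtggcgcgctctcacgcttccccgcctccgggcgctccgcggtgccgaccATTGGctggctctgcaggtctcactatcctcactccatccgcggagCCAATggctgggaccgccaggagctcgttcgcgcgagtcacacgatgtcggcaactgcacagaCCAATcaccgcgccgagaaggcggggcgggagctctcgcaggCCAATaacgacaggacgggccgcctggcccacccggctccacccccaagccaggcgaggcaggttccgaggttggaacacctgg
INSIG1: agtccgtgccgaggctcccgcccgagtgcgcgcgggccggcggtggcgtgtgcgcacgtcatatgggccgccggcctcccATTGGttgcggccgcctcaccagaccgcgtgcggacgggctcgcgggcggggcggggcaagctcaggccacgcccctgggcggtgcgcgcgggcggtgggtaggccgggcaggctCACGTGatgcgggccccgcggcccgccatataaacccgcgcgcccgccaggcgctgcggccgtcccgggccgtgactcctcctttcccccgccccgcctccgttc
SCD: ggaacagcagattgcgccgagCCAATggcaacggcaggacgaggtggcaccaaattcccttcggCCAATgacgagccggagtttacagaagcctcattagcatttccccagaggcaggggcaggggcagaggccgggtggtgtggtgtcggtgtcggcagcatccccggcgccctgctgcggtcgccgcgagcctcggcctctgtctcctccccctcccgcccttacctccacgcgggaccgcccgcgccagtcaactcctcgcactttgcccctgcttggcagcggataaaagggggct
SREBF2: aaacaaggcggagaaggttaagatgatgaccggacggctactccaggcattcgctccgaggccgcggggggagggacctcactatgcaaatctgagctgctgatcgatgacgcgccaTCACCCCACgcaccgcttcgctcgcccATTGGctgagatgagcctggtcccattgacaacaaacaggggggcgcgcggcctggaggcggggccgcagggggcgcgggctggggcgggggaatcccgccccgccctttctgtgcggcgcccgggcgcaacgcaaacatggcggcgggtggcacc

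SREBF2 held the only match to the sterol element, 133 bases before its start, among the 29 members with a window in RefSeq. Some genes have several windows, and a gene counts as holding a motif if any of its windows does. The element was found in 1.39% of the 27305 genes with a window. A CCAAT box was found in 20 of the 29 members (69%), against 39.7% of all genes with a window, and the windows of MVK and NSDHL hold 5 each. The E-box was found in 4 of the 29 members (13.8%), INSIG1 among them, against 8.77% of all genes with a window. Of the 10 members called in the clone comparison below, 9 have a window and 8 of these hold a CCAAT box, and of the other 23 members 20 have a window and 12 hold one. SREBF1, called there but not shown, has a window with none of these motifs. LSS, also called and not shown, has a window with a CCAAT box and an E-box. All of these are matches of letters in a short window.

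With DOX, TM7SF2 was the only member that passed the test, and it did so in the fit that compares libraries within clones. The comparison asks which members differ between libraries with and without DOX of the same clones. Mesenchymal and epithelial are the labels' names for these states, and the mesenchymal markers above stayed low in both. TM7SF2, one of the enzymes that reduce the sterol double bond left after lanosterol is demethylated, had 86.2, 37.96 and 58.4 CPM in WT2, WT5 and WT37 with DOX, against 53.3, 30.0 and 34.6 CPM in the same clones without DOX. The gene was higher with DOX in all 3 clones, by log2 0.69 in WT2, 0.34 in WT5 and 0.75 in WT37, although the groups overlapped because the clones started at different levels. Its mean was 60.8 ± 24.2 CPM with DOX and 39.3 ± 12.4 CPM without DOX (SD, n = 3 each). TM7SF2 (ENSG00000149809) lies on chromosome 11 from 65111845 to 65116384, plus strand, on GRCh38.

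Of the 33 members, 31 had enough reads to be tested, and 0 passed an adjusted p of 0.05 in edgeR's quasi-likelihood test of DOX without a clone term, where 0 of all 11732 genes passed (0%) and 0 members had an unadjusted p under 0.05, against 709 of all genes. DESeq2 and limma-voom likewise called 0 members in that design. With the clone as replicate block, which sets each library with DOX against its own clone without DOX, 1 of 31 members rose and 0 fell, while 1.3% of all genes were called, 0.656% higher and 0.639% lower. The member was TM7SF2, with a log2 fold change of 0.63 ± 0.31 (SE, edgeR adjusted p = 0.886) without the block and 0.61 ± 0.12 (edgeR adjusted p = 0.0361) with it. Without WT2 the blocked fold change was 0.56 (edgeR adjusted p = 0.329) and without WT37 it was 0.53 (edgeR adjusted p = 0.443), in fits where the calls over all genes fell to 8 and 5, against 152 with all clones. Without WT5 the blocked fold change was 0.72 (edgeR adjusted p = 0.00323), in a fit where the calls over all genes rose to 743. DESeq2 with the block gave an adjusted p of 0.0506. TM7SF2 shares exon sequence on its own strand with VPS51, outside its last 500 bases, and VPS51 had 13 to 22 reads per library.

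LBR, the lamin B receptor, carries out the same sterol reduction in the nuclear envelope. Its level was 177, 156 and 159 CPM in WT2, WT5 and WT37 with DOX, against 178, 175 and 203 CPM without DOX. Its values were lower with DOX in each of the clones, with a blocked log2 fold change of -0.18 ± 0.10 that missed the threshold (edgeR adjusted p = 0.477). A difference in DOX effect between the paralogs was not tested. Among the other genes from squalene to cholesterol, SQLE (squalene epoxidase) and SC5D (sterol desaturase) were also lower with DOX in all 3 clones without passing. In the same arm, LSS, MSMO1, NSDHL, EBP and DHCR7 had changes of both signs over the clones. None of these changed in both directions by more than the 95% binomial interval for counting error used below. LSS and NSDHL stayed within it in every clone.

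**Figure D1:**
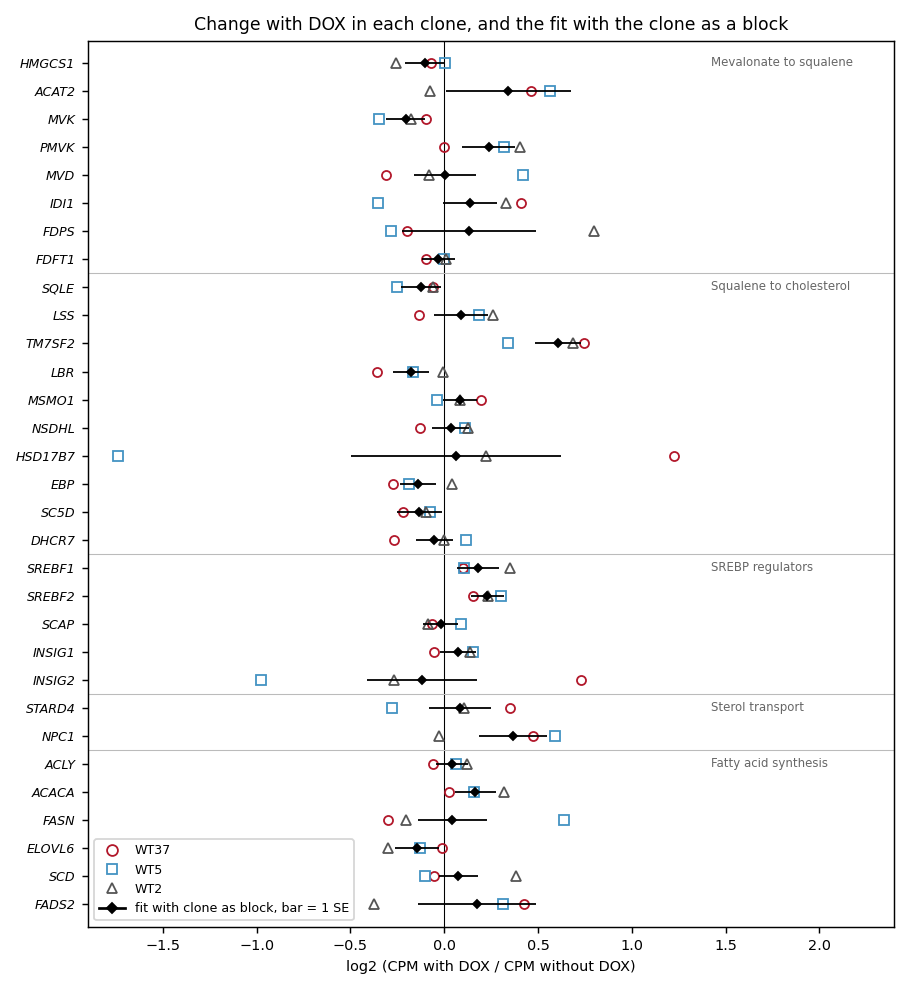
log2 change with DOX (CPM with DOX over CPM without DOX) for each tested member, 1 symbol per clone, and the fit with the clone as block (diamond, bar = 1 SE), with members grouped by role. TM7SF2 and SREBF2 lie above 0 in all 3 clones, while HSD17B7 and INSIG2 spread furthest on both sides of 0.

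In the mevalonate arm no member passed for DOX in either fit, and the blocked changes ran from ACAT2 at the top to MVK at the bottom. ACAT2, the thiolase that joins 2 acetyl-CoA units, had 3.29, 2.85 and 3.13 CPM in WT2, WT5 and WT37 with DOX, against 3.48, 1.83 and 2.19 CPM without DOX. Few reads stand behind these values, and the blocked log2 fold change was 0.34 ± 0.33 (edgeR adjusted p = 0.718). Its end lies opposite TCP1, and reads of the pair cannot be told apart if the counting ignored strand, which the sources used here do not state. MVK (mevalonate kinase) had 60.2, 64.2 and 91.9 CPM in WT2, WT5 and WT37 with DOX, against 68.2, 81.8 and 98.3 CPM without DOX. Each clone was lower with DOX, but the groups overlapped and the blocked change of -0.21 ± 0.11 missed the threshold (edgeR adjusted p = 0.435). The summed level of the arm was 496, 503 and 687 CPM in WT2, WT5 and WT37 with DOX, against 495, 522 and 701 CPM without DOX, so the sums of WT37 lay above those of the other clones in both states.

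Among the regulators, SREBF2 was the only one of the 31 tested members whose 3 libraries with DOX all lay above the 3 without DOX, an arrangement found in 5.3% of all genes tested. SREBF2 encodes the SREBP that mainly drives cholesterol synthesis. It had 235, 230.05 and 216 CPM in WT2, WT5 and WT37 with DOX, against 200, 187 and 195 CPM without DOX. The means were 227 ± 9.64 CPM with DOX and 194 ± 6.53 CPM without DOX (SD, n = 3 each). The blocked log2 fold change of 0.23 ± 0.09 had an unadjusted p under 0.05 but missed the adjusted threshold (edgeR adjusted p = 0.289). In the blocked fit 2 of 31 members had an unadjusted p under 0.05, beside 1510 of 11732 genes. No member had all its libraries with DOX below those without, which 6.09% of all genes did. SREBF1, which encodes the SREBP of fatty acid synthesis, was also higher with DOX in all 3 clones, at 58.7, 44.7 and 84.0 CPM in WT2, WT5 and WT37 with DOX, against 46.0, 41.5 and 78.5 CPM without DOX. The larger differences of SREBF1 lay between clones, as described below.

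INSIG2, the paralog of INSIG1, had 10.9, 5.85 and 15.4 CPM in WT2, WT5 and WT37 with DOX, against 13.1, 11.8 and 9.17 CPM without DOX. WT37 was higher with DOX and the other clones lower, so the blocked change of -0.12 ± 0.29 carries no common direction (edgeR adjusted p = 0.910). INSIG1 in the same libraries was at 117, 103 and 204 CPM with DOX, against 106, 92.9 and 212 CPM without DOX. STARD4, a carrier of cholesterol between membranes, had a blocked log2 fold change of 0.08 ± 0.17 (edgeR adjusted p = 0.882), with 18.7, 12.7 and 26.1 CPM in WT2, WT5 and WT37 with DOX, against 17.4, 15.5 and 20.4 CPM without DOX. NPC1, which lets cholesterol out of lysosomes, had 12.3, 16.7 and 16.8 CPM with DOX in the same order of clones, against 12.6, 10.99 and 12.05 CPM without DOX. WT5 and WT37 were higher with DOX and WT2 was not, and the blocked change of NPC1 was 0.37 ± 0.18 (edgeR adjusted p = 0.422).

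Fatty acid synthesis showed no member called for DOX. FADS2, a desaturase of polyunsaturated fatty acids, had the highest blocked change of its list at 0.17 ± 0.31 (edgeR adjusted p = 0.863), with 2.47, 4.42 and 3.79 CPM in WT2, WT5 and WT37 with DOX, against 3.28, 3.497 and 2.74 CPM without DOX. FADS1, its neighbour and partner desaturase, was too sparse to test at 4, 5 and 7 reads in WT2, WT5 and WT37 with DOX and 0, 5 and 6 reads without DOX. The annotation places these neighbours opposite each other over part of their exons. FADS2 also shares exon sequence on its own strand with FEN1, outside its last 500 bases, and FEN1 had 1441 to 2032 reads per library. ELOVL6, which lengthens saturated fatty acids, had 45.9, 40.5 and 45.7 CPM in WT2, WT5 and WT37 with DOX, against 56.6, 44.3 and 46.0 CPM without DOX. It was lower with DOX in all clones, by little outside WT2, and its blocked change was -0.14 ± 0.12 (edgeR adjusted p = 0.647). ACACA, the carboxylase that makes malonyl-CoA, was higher with DOX in all clones at 72.8, 68.4 and 69.7 CPM with DOX, against 58.4, 61.1 and 68.5 CPM without DOX. FASN, the fatty acid synthase, went different ways, with 682, 980.1 and 632 CPM in WT2, WT5 and WT37 with DOX, against 786, 629 and 778 CPM without DOX.

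CYP51A1, the lanosterol demethylase just before TM7SF2 and LBR in the pathway, had 1 read in WT5 with DOX and 0 reads in the other 5 libraries. A count of 0 allows up to 0.392 to 0.580 CPM in those libraries, counting error only. Its end overlaps AC000120.2 on the same strand and the gene has 3 annotated pseudogenes, and reads that fit several places were kept apart from genes in the deposited counts. The part of these features in the low count was not tested. FDPS, which makes farnesyl diphosphate, was likewise low at 1.998 to 4.604 CPM with DOX and 2.50 to 2.74 CPM without DOX. FDPS has 8 annotated pseudogenes, and its end lies opposite RUSC1-AS1.

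Over all 31 tested members the median log2 fold change with DOX was 0.06 with the block, beside 0.01 over all genes. Of these members 20 were above 0 and 11 below, beside 6000 of 11732 genes above 0 and 5732 below. Higher with DOX in all 3 clones were 4 members, TM7SF2, SREBF1, SREBF2 and ACACA, against 17.7% of all genes, and 5 members, MVK, SQLE, LBR, SC5D and ELOVL6, were lower in all 3, against 17.4% of all genes. The shares of members that went the same way in all 3 clones lie near or under the shares of all genes.

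Between the clones, by contrast, a large share of the members differed, and most of them were highest in WT37. They include enzymes of the mevalonate arm, SREBF1 and INSIG1 of the SREBP system, and the desaturase SCD. In the test of the clone term, with DOX as a covariate, 10 of 31 members passed: HMGCS1, MVK, IDI1, FDFT1, LSS, TM7SF2, MSMO1, SREBF1, INSIG1 and SCD, where 6.84% of all genes passed. For 11 of the 31 members both WT37 libraries lay above the other 4, an arrangement of 14.9% of all genes, and for 1 member, SCAP, both lay below, as in 14.2% of all genes. The 11 were the called members other than TM7SF2, with SQLE and STARD4 added. SQLE had 68.0 CPM with DOX and 70.9 CPM without DOX in WT37, against 54.9 and 65.4 CPM in WT5 and 52.0 and 54.1 CPM in WT2. SCAP, the escort protein of the SREBPs, had 115 CPM with DOX and 120 CPM without DOX in WT37, against 136 and 128 CPM in WT5 and 133 and 141 CPM in WT2. Neither gene passed the clone test. The test takes DOX to act alike in all clones and rests on 2 libraries per clone.

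**Figure D2:**
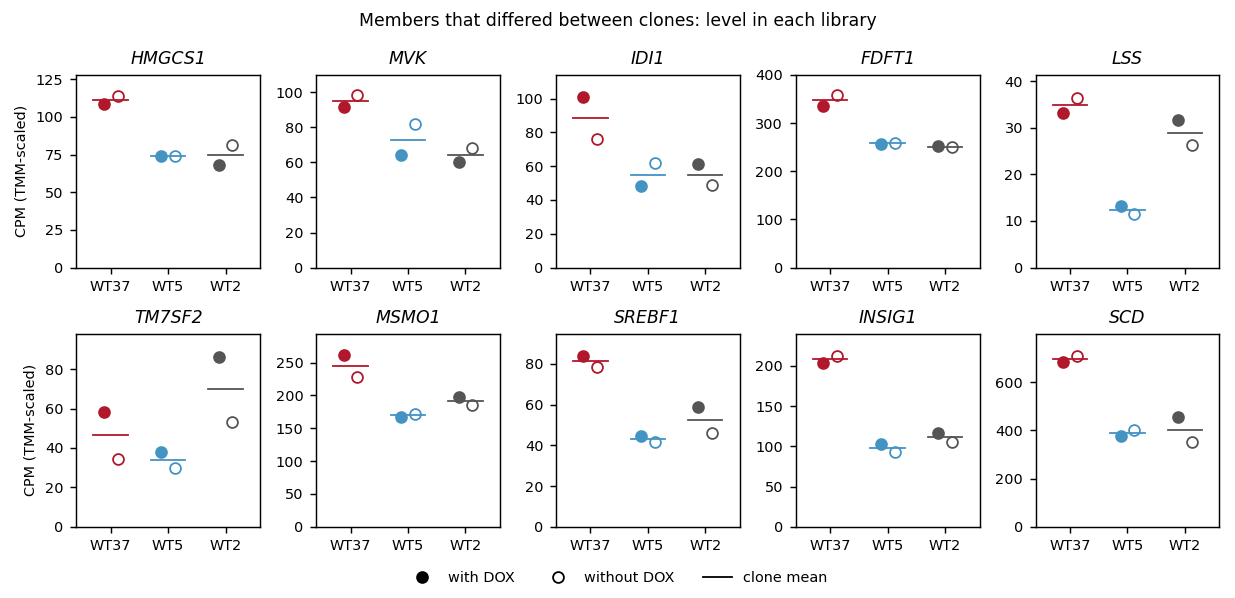
Level of the members called between clones, in TMM-scaled CPM, in each library with DOX and without DOX by clone. In 9 of the 10 panels both WT37 points lie above those of the other clones, while TM7SF2 is highest in WT2.

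INSIG1 (ENSG00000186480, chromosome 7, 155297776 to 155310235, plus strand), whose promoter is shown above with a CCAAT box and an E-box, differed most firmly. It had 204 CPM with DOX and 212 CPM without DOX in WT37, against 103 and 92.9 CPM in WT5 and 117 and 106 CPM in WT2. WT37 did not overlap with either clone. The log2 fold change was 0.91 ± 0.12 for WT37 over WT2 (edgeR adjusted p = 0.00109) and 1.09 ± 0.12 for WT37 over WT5 (edgeR adjusted p = 0.000539). Its calls held when any 1 library was left out.

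SCD (chromosome 10, 100347124 to 100364834, plus strand), the desaturase that makes oleate and palmitoleate, had 683 CPM with DOX and 709 CPM without DOX in WT37, against 375 and 403 CPM in WT5 and 456 and 350.1 CPM in WT2. The log2 fold change was 0.79 ± 0.13 for WT37 over WT2 (edgeR adjusted p = 0.00443) and 0.84 ± 0.13 for WT37 over WT5 (edgeR adjusted p = 0.00404). The other enzymes of fatty acid synthesis did not share this difference by the test: ACLY, ACACA, FASN, ELOVL6 and FADS2 were not called between any pair of clones. SREBF1 (chromosome 17, 17810399 to 17837002, minus strand) had 84.0 CPM with DOX and 78.5 CPM without DOX in WT37, against 44.7 and 41.5 CPM in WT5 and 58.7 and 46.0 CPM in WT2. That is a log2 fold change of 0.64 ± 0.14 over WT2 (edgeR adjusted p = 0.0199) and 0.92 ± 0.14 over WT5 (edgeR adjusted p = 0.00364), whereas SREBF2 stood at -0.08 and -0.01 in the same contrasts and was not called. The end of SREBF1 lies opposite RAI1, which had 13 to 25 reads per library.

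In all, 4 of the 8 mevalonate genes were called between clones, spread from the start to the end of the arm. HMGCS1, the synthase that makes HMG-CoA, had 108.9 CPM with DOX and 114.2 CPM without DOX in WT37, against 74.2 and 74.1 CPM in WT5 and 67.9 and 81.2 CPM in WT2. The log2 fold change of WT37 was 0.59 ± 0.13 over WT2 (edgeR adjusted p = 0.0209) and 0.59 ± 0.12 over WT5 (edgeR adjusted p = 0.0193). IDI1, the isomerase of the isoprenoid unit, had 101.2 CPM with DOX and 76.3 CPM without DOX in WT37, against 48.2 and 61.6 CPM in WT5 and 61.2 and 48.7 CPM in WT2, a log2 fold change of 0.69 ± 0.18 over WT2 (edgeR adjusted p = 0.0446) and 0.68 ± 0.18 over WT5 (edgeR adjusted p = 0.0447). FDFT1, which makes squalene, had 336 CPM with DOX and 359 CPM without DOX in WT37, against 257 and 258 CPM in WT5 and 251 and 250 CPM in WT2. The fold changes of FDFT1 were small but tight, 0.47 ± 0.11 over WT2 (edgeR adjusted p = 0.0253) and 0.43 ± 0.11 over WT5 (edgeR adjusted p = 0.0359). MVK, with the 5 CCAAT boxes shown above, passed over WT2 at 0.57 ± 0.13 (edgeR adjusted p = 0.0253) and missed over WT5 at 0.39 ± 0.13 (edgeR adjusted p = 0.0879).

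PMVK, MVD, ACAT2 and FDPS, the other members of the arm, were not called between clones. The median log2 fold change of the 8 mevalonate genes was 0.36 for WT37 over WT2 and 0.29 for WT37 over WT5, beside 0.01 and 0.00 over all genes. Summed over the arm, the mean of the WT37 libraries was 1.40 times that of WT2 and 1.35 times that of WT5.

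**Figure D3:**
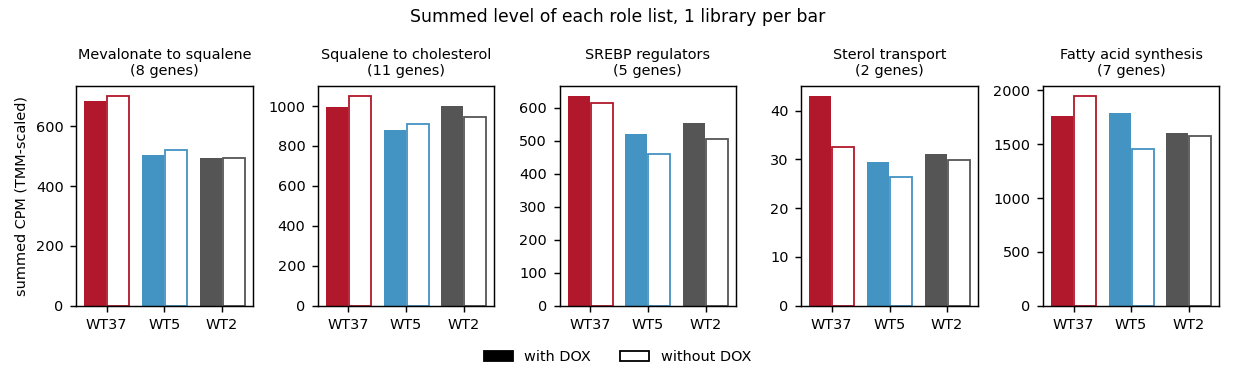
Summed TMM-scaled CPM of the 5 role lists in each library, with DOX and without DOX, by clone. The mevalonate arm stands at 687 and 701 CPM in WT37 and between 495 and 522 CPM in the other libraries, while the genes from squalene to cholesterol run together at 880 to 1049 CPM.

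From squalene to cholesterol the clone differences had no common form. MSMO1, the sterol methyl oxidase, had 262 CPM with DOX and 229 CPM without DOX in WT37, against 168 and 172 CPM in WT5 and 197 and 186 CPM in WT2, and passed over WT5 at 0.53 ± 0.11 (edgeR adjusted p = 0.0197) but not over WT2 at 0.36 ± 0.11 (edgeR adjusted p = 0.0844). LSS, the cyclase that makes lanosterol (chromosome 21, 46188141 to 46228824, minus strand), was low in WT5 instead: 33.2 CPM with DOX and 36.4 CPM without DOX in WT37, 13.1 and 11.5 CPM in WT5, and 31.6 and 26.3 CPM in WT2. WT37 over WT5 was 1.499 ± 0.180 on the log2 scale (edgeR adjusted p = 0.000982) and WT5 over WT2 was -1.23 ± 0.19 (edgeR adjusted p = 0.00551), while WT37 over WT2 at 0.27 ± 0.17 missed (edgeR adjusted p = 0.369). The end of LSS lies opposite AP001468.1.

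TM7SF2 was highest in WT2. With the values given above, WT37 over WT2 was -0.59 ± 0.15 on the log2 scale (edgeR adjusted p = 0.0365), WT37 over WT5 at 0.43 ± 0.15 missed the threshold (edgeR adjusted p = 0.118), and WT5 was lower than WT2 by -1.01 ± 0.15 (edgeR adjusted p = 0.00513). LBR did not pass between any pair of clones. The pattern of TM7SF2 over the clones, highest in WT2 and lowest in WT5, therefore held in both states, whereas its rise with DOX was smallest in WT5.

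**Figure D4:**
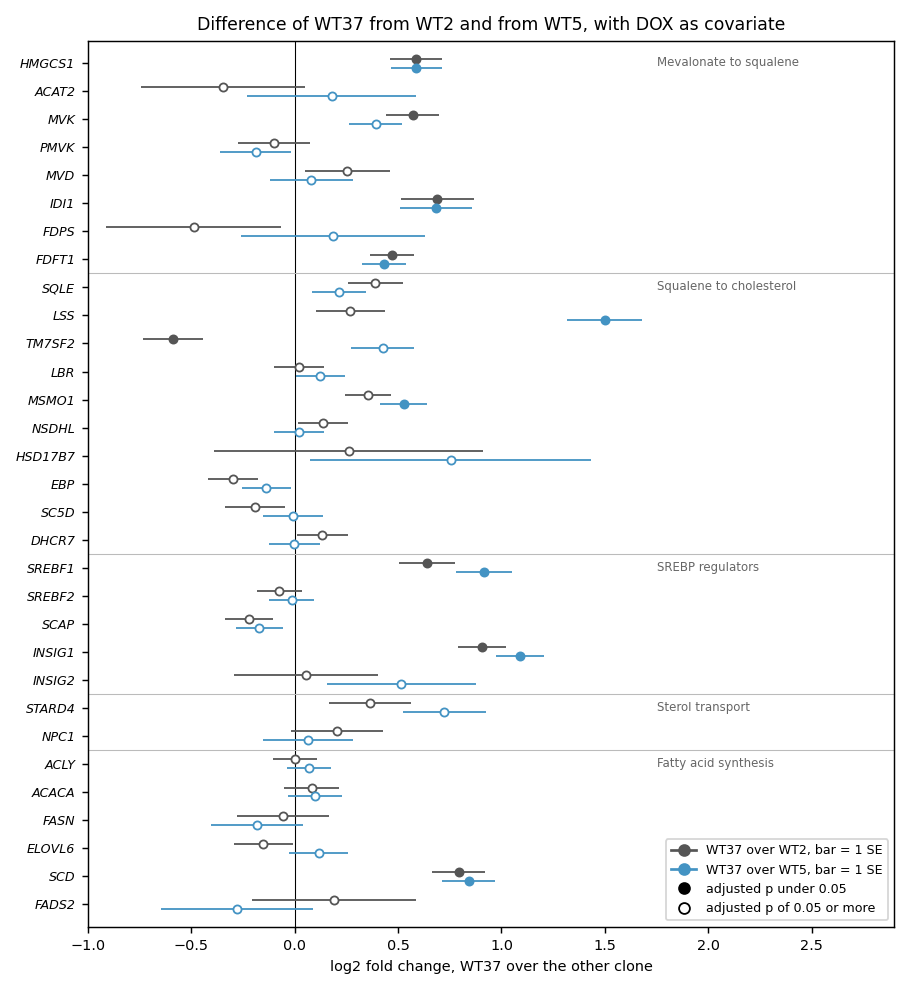
log2 fold change (± SE) of each tested member for WT37 over WT2 and WT37 over WT5, by role list. INSIG1, SCD and SREBF1 stand to the right in both contrasts, TM7SF2 is below 0 only over WT2, and LSS is far above 0 only over WT5.

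Counted by contrast, WT37 over WT2 had 7 of 31 members higher and 1 lower, beside 3.15% and 2.68% of all genes and 5.83% in either direction. WT37 over WT5 had 8 higher (HMGCS1, IDI1, FDFT1, LSS, MSMO1, SREBF1, INSIG1 and SCD) and 0 lower, beside 3.17% and 2.74% of all genes and 5.92% in either direction. WT5 over WT2 had 0 higher and 2 lower (LSS and TM7SF2), beside 0.682% and 0.341% of all genes and 1.02% in either direction. Median log2 fold changes of the members were 0.14, 0.18 and -0.06 in these contrasts, beside 0.01, 0.00 and 0.00 over all genes. Comparisons that hold the same clone share its libraries. Leaving out each library in turn kept every called direction, but the call held in all 6 settings only for INSIG1 in WT37 over WT2, and for LSS, SREBF1, INSIG1 and SCD in WT37 over WT5. Over WT2, the calls of HMGCS1, MVK, FDFT1, TM7SF2 and SREBF1 were each lost without any 1 of the 4 libraries of WT37 and WT2, with HMGCS1 between 0.47 and 0.70 on the log2 scale, in fits where the calls over all genes fell to 137 to 278, against 684 with all libraries. IDI1 lost that call without either WT2 library or without the WT37 library with DOX, and SCD lost it without the WT2 library lacking DOX, where its fold change stood at 0.57. Over WT5, HMGCS1 lost its call without either WT37 library, FDFT1 without any 1 library of WT37 or WT2, and MSMO1 without either WT37 library or the WT5 library with DOX. IDI1 over WT5 was lost without the WT37 or the WT5 library with DOX, and stood at 0.32 without that WT5 library. In WT5 over WT2 both calls were lost without the WT2 library with DOX, at -1.09 for LSS and -0.94 for TM7SF2. The part of the lower share of multiply mapped reads in WT37 was not tested.

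Within single clones, some members moved with DOX by more than counting error and in opposite directions. Against 95% binomial intervals, which cover counting error only, 8 of 31 members were higher and 3 lower with DOX in WT2, beside 12.3% and 13.7% of all genes tested. In WT5, 6 were higher and 8 lower, beside 14.8% and 14.6%, and in WT37, 8 were higher and 6 lower, beside 17.6% and 19.8%. The interval narrows with the number of reads, and the members were not matched to other genes by level. For 6 of the 31 the clones went opposite ways beyond this interval, beside 8.46% of all genes. HSD17B7, a sterol ketoreductase with 2 annotated pseudogenes, had 51, 17 and 101 reads in WT2, WT5 and WT37 with DOX, against 37, 53 and 40 reads without DOX. It was thus lower with DOX in WT5 and higher in WT37. INSIG2 had 66, 41 and 118 reads in WT2, WT5 and WT37 with DOX, against 68, 71 and 67 reads without DOX. FASN was higher with DOX in WT5 and lower in WT2 and WT37. With 1 library per clone and state these differences have no replicate and were not tested.

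**Figure D5:**
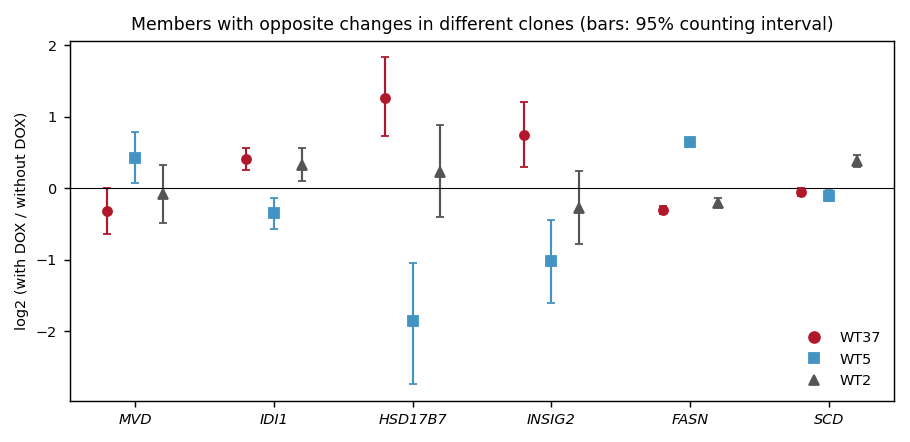
log2 change with DOX in each clone, with 95% binomial intervals for counting error, for the 6 members that changed in opposite directions in different clones. HSD17B7 shows the widest spread, below 0 in WT5 and above 0 in WT37.

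Other genes of lipid metabolism, taken from lists of the neighbouring pathways, gave a few calls of their own. Of 12 tested genes of sterol export, storage and the sterol receptor LXR, 1 rose with DOX in the blocked fit and 0 fell, beside 0.656% and 0.639% of all genes. SOAT1, which esterifies cholesterol for storage, had 19.9, 19.8 and 31.6 CPM in WT2, WT5 and WT37 with DOX, against 9.85, 9.16 and 18.2 CPM without DOX. All 3 clones were higher, by log2 0.99, 1.09 and 0.78 in WT2, WT5 and WT37, with a fold change of 0.93 ± 0.29 (edgeR adjusted p = 0.628) without the block and 0.96 ± 0.16 (edgeR adjusted p = 0.0163) with it. The fold change was 0.94 without WT2 (edgeR adjusted p = 0.136) and 1.07 without WT37 (edgeR adjusted p = 0.120), so the call was lost while the change was not smaller by more than its SE. Without WT5 the call held, at 0.88 (edgeR adjusted p = 0.00894). In this list 10 of 12 genes were above 0 with DOX, with a median of 0.19, beside 6000 of 11732 genes above 0 and a median of 0.01.

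In this list the clone term called 3 of 12 genes, SOAT1, MYLIP and DGAT2, beside 6.84% of all genes. SOAT1 was higher in WT37 than in WT2, at 0.77 ± 0.19 (edgeR adjusted p = 0.0353), and than in WT5, at 0.81 ± 0.19 (edgeR adjusted p = 0.0275). PLIN2 was called over WT2 alone, at 2.77 ± 0.74 (edgeR adjusted p = 0.0478), with 4 reads in WT2 with DOX and 0 without DOX. It missed in the clone term (edgeR adjusted p = 0.0777). MYLIP, a ubiquitin ligase induced by LXR, was higher in WT37 than in WT5 at 1.01 ± 0.20 (edgeR adjusted p = 0.0151). It had 31.9 CPM with DOX and 25.9 CPM without DOX in WT37, against 12.3 and 16.5 CPM in WT5 and 22.5 and 21.1 CPM in WT2. DGAT2, which makes triglycerides, was highest in WT5. It had 15.1 CPM with DOX and 7.26 CPM without DOX in WT37, 31.1 and 20.5 CPM in WT5, and 14.0 and 9.66 CPM in WT2. WT5 over WT2 was 1.13 ± 0.21 (edgeR adjusted p = 0.0215) for DGAT2, and WT37 over WT5 was -1.23 ± 0.20 (edgeR adjusted p = 0.00607).

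Of 8 fatty acid oxidation genes 1 fell with DOX in the blocked fit, beside 0.639% of all genes. ACAA2, the last thiolase of mitochondrial oxidation, had 71.7, 68.9 and 58.9 CPM in WT2, WT5 and WT37 with DOX, against 99.7, 88.3 and 98.2 CPM without DOX. The groups did not overlap, with a fold change of -0.52 ± 0.13 (edgeR adjusted p = 0.413) without the block and -0.52 ± 0.11 (edgeR adjusted p = 0.0410) with it. The blocked change was -0.55 without WT2 (edgeR adjusted p = 0.271), -0.41 without WT37 (edgeR adjusted p = 0.590) and -0.61 without WT5 (edgeR adjusted p = 0.00743). CPT1A, which brings fatty acids into mitochondria, was the 1 of these 8 genes called by the clone term (6.84% of all genes). It had 150 CPM with DOX and 129 CPM without DOX in WT37, against 225 and 178 CPM in WT2, a log2 fold change of -0.52 ± 0.12 (edgeR adjusted p = 0.0236). LPIN1, a lipid phosphatase and SREBP target, was the 1 of 9 tested genes of its list called by the clone term (6.84% of all genes), at 24.8 CPM with DOX and 25.2 CPM without DOX in WT37, against 13.3 and 10.2 CPM in WT5 and 8.06 and 10.8 CPM in WT2. WT37 over WT2 was 1.41 ± 0.22 (edgeR adjusted p = 0.00412) for LPIN1 and WT37 over WT5 was 1.09 ± 0.21 (edgeR adjusted p = 0.0143). Of 9 genes of the isoprenoid branches 0 were called for DOX or between clones by edgeR. In the blocked fit 8 of the 9 were below 0 with DOX, beside 5732 of 11732 genes. Lower with DOX in all 3 clones were 2 of the 9, beside 17.4% of all genes. When 1 library was left out, the SOAT1 and CPT1A calls over WT2 were lost without any 1 library of WT37 or WT2, those of LPIN1 over WT2 and DGAT2 in WT5 over WT2 without the WT2 library with DOX, those of SOAT1 and LPIN1 over WT5 without either WT37 library, and that of MYLIP without the WT37 or the WT5 library with DOX. In the other elongation genes 0 of 9 were called for DOX or by the clone term, and 2 were lower in WT37 than in WT2 (2.68% of all genes): HACD2 at -0.53 ± 0.13 (edgeR adjusted p = 0.0339) and TECR at -0.69 ± 0.17 (edgeR adjusted p = 0.0328), both enzymes of the elongation cycle.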

How the data were processed

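Libraries were prepared with a QuantSeq 3′ mRNA kit, per the labels' protocols. Raw read counts per Ensembl gene were deposited. GRCh38 and DESeq2 appear in the submitters' processing notes. Aligner, counter, strand setting and annotation: not given in the sources used here. Unassigned reads, in 4 rows, made up 4.29% to 5.25% (unmapped), 11.8% to 16.0% (several places), 8.72% to 11.7% (no feature) and 6.85% to 7.40% (ambiguous) of the reads, and entered neither library sizes nor tests. Positions and overlaps come from GENCODE 29.

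The 33 members, the neighbouring lists and the tests were chosen with earlier results of these data known. Counts were tested across all genes in R 4.3.3 with edgeR 4.0.16 (quasi-likelihood, robust, TMM, filterByExpr, 11732 genes) and Benjamini-Hochberg adjustment at 0.05. limma 3.58.1 and DESeq2 1.42.0 were alternatives. The DOX fit had no clone term. The clone as replicate block was the alternative, and same-clone libraries deviated together (r over genes of 0.49 in WT2, 0.28 in WT5, 0.53 in WT37), so clones named in the labels paired them. Biological variation (edgeR's coefficient) came to 10.9% with the block and 17.9% with none. Clone contrasts had DOX as a covariate. Standard errors are the log2 fold change over the root of F. Changes within a clone are log2 ratios of TMM-scaled CPM whose intervals cover counting error. Within a group, libraries differed by 6.11 to 18.3 times the degrees of freedom in a chi-square test, well over sampling noise. Values per library are given for members called in any fit and for the highest and lowest DOX change of each role list, with paralogs side by side, and others by range or count, except a few (SREBF1 and INSIG1 for DOX, ACACA, FASN, HSD17B7, SQLE, SCAP, FDPS, CYP51A1) chosen after their values were seen. The tests were tried on simulated counts first.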

Additional observations from a re-analysis of the deposited data

Results flagged for a closer look

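For 6 of 31 tested members, beside 8.46% of all genes, the change with DOX pointed in opposite directions in different clones, each time beyond the 95% binomial interval for counting error in at least 1 clone on either side. The values are log2 changes with DOX over without DOX in 1 pair of libraries per clone, and the difference between clones was not tested. HSD17B7 changed by 0.23 in WT2, -1.86 in WT5 and 1.27 in WT37. INSIG2 changed by -0.28 in WT2, -1.01 in WT5 and 0.75 in WT37. For IDI1 the changes were 0.33 in WT2, -0.35 in WT5 and 0.41 in WT37. MVD, the decarboxylase of the mevalonate arm, stood at -0.08 in WT2, 0.43 in WT5 and -0.32 in WT37. MVD met the rule narrowly, as its interval ended at -0.00012 in WT37 and began at 0.072 in WT5. FASN stood at -0.21 in WT2, 0.64 in WT5 and -0.30 in WT37. SCD was higher with DOX beyond counting error in WT2, with 0.38, and was lower in WT5, with -0.10, as well as in WT37, with -0.05. In 5 of the 6 members WT5 and WT37 were on opposite sides of 0, the exception being SCD.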

How the results depend on the processing

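The DOX count over members was 0 without and 1 with the replicate block, where TM7SF2 was called. It was also 1 with no filter and, with the block, under RLE factors, no filter, a stricter filter, no robust estimation or limma-voom. With the block it was 0 with DESeq2 and 0 to 1 when 1 clone was left out. The clone test called 10 members, 4 with no DOX term, and 2 to 13 when a clone or 1 library was left out. WT37 over WT2 had 8 calls, 5 with DESeq2 and 1 to 10 with 1 clone or library left out. WT37 over WT5 had 8 calls and 4 to 13 with 1 left out, and WT5 over WT2 had 2 calls and 0 to 4 with 1 left out. Fits without robust estimation, and the clone results without 1 library, were added after seeing the data. Among all genes, the blocked DOX count of 152 became 5 to 743 with 1 clone left out and 518 with no filter. Without the block, 0 became 206 with no filter, 57 with DESeq2 and up to 35 with 1 library left out. The clone test's 802 became 436 with DESeq2, 1783 with no filter, 248 with no DOX term and 129 to 2286 with libraries left out. No filter and DESeq2 gave 1244 and 326 for WT37 over WT2 (684), and 1294 and 319 for WT37 over WT5 (694), and no filter gave 346 for WT5 over WT2 (120).

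Direction turned for 4 uncalled values. The DOX change of INSIG2 became 0.03 without WT2 or its library without DOX, 0.25 without WT5, 0.22 without the WT5 library with DOX, and 0.28 with the block without WT5 (left-out range -0.62 to 0.28 with the block, -0.59 to 0.25 with none). For STARD4 it became -0.07 without WT37, -0.18 without the WT37 library with DOX and -0.084 with the block without WT37 (range -0.18 to 0.34). FADS2 became -0.0066 without the WT5 library with DOX (range up to 0.40). DGAT2 in WT37 over WT2 became 0.0057 without the WT2 and 0.099 without the WT37 library lacking DOX (range from -0.39). The cause was not tested. Depth limits HSD17B7, INSIG2, ACAT2, FDPS, FADS1, FADS2 and CYP51A1 most, which had few reads.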
